A study of Mus musculus with 2 samples.

Results

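The 9 genes described here are the globin genes and a pair of further red cell genes, read out in E12.5 mouse distal forelimbs. They are Hba-x, Hba-a1 and Hba-a2 of the alpha-like globin cluster, Hbb-y, Hbb-bh1, Hbb-b1 and Hbb-b2 of the beta-like cluster, Alas2 and Slc4a1. They were taken by gene symbol, and all 9 of them were found among the 23157 genes of the deposited table, with 20 of its 64053 transcripts. Each of the 9 genes passed the filter of a mean of at least 10 normalized reads.

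Strand-specific, poly(A)-selected RNA-seq was done on 1 wild-type library and 1 library from embryos homozygous for the HoxD Inv(TpSB1-Itga6) inversion. In this allele a long segment of chromosome 2 near the HoxD cluster is turned around. The strain of both is given as C57Bl6CBAF1, the stage as E12.5 and the tissue as distal limb, and each library is described as a pool from 3 pairs of forelimbs. The wild-type sample is titled wtFL and the inversion sample invDFL, while the tissue label of both and the column of the table (wtDFL) name the distal limb. Whether the wild-type dissection was the same was not tested. The libraries held 9280660 reads (wild type) and 9466154 reads (inversion) as assigned to transcripts. As each genotype has 1 library, none of the differences given has a replicate check, and each 95% interval (exact Clopper-Pearson, unless another is named) covers counting error only and compares these libraries, not the genotypes.

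Haemoglobin is a tetramer of alpha-like and beta-like globin chains, each of which carries a haem group. In the mouse embryo, primitive red cells from the yolk sac enter the circulation first and make embryonic chains, encoded by Hba-x (zeta), Hbb-bh1 (beta-h1) and Hbb-y (epsilon-y), and they add adult-type chains as they mature. Definitive red cells, which leave the fetal liver later, make mainly the adult-type chains of Hba-a1, Hba-a2 and the adult beta genes. Globin transcripts in limb tissue mark the blood that circulates in it, since limb mesenchyme is not a site of haemoglobin synthesis. Alas2 encodes the erythroid enzyme for the first step of haem synthesis, and Slc4a1 encodes band 3, the anion exchanger of the red cell membrane.

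Which of these genes could be told apart in the reads was first read from their sequences, as the symbols of the table do not show it. The first 60 coding bases of the alpha-like genes (GENCODE M21 transcripts) are shown to compare the embryonic gene with the adult-type pair, with capitals where a base differs from Hba-a1.
Hba-a1: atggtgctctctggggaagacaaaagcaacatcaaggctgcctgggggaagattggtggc
Hba-a2: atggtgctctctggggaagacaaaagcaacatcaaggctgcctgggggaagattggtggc
Hba-x: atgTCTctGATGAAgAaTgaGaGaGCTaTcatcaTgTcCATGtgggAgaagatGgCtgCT

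The same stretch of the beta-like genes is shown with capitals where a base differs from the adult-type gene listed as Hbb-b1.
Hbb-b1: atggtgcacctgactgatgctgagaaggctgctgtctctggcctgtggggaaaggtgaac
Hbb-b2: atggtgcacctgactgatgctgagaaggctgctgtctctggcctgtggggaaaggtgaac
Hbb-bh1: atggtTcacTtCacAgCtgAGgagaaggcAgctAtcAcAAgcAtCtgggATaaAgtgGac
Hbb-y: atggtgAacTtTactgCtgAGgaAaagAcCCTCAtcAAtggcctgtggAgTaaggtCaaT

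The adult-type pairs are near-identical copies, whereas the embryonic genes are not. Over 426 coding bases, Hba-a1 and Hba-a2 differ at 1 base, and over 441 coding bases Hbb-b1 and Hbb-b2 differ at 1 base. Hba-x is identical to Hba-a1 at only 61.7% of coding bases and Hbb-y to Hbb-b1 at 74.4%. For reads of 100 bases, as used here, 74.5% of the windows in the Hba-a2 transcript also occur in Hba-a1, and 62.6% of those in Hbb-b1 also occur in Hbb-b2. No such window of Hba-x, Hbb-y or Hbb-bh1 occurs in the transcripts of the other globin genes compared. Within Hba-x, 49.1% of the windows of its first listed transcript also occur in its second, and the reads of both (228 and 218 in wild type) are summed here. Values of Hba-a1 against Hba-a2, and of Hbb-b1 against Hbb-b2, are therefore uncertain, and each pair is also given as a sum. By their transcript identifiers, the genes listed as Hbb-b1 and Hbb-b2 are those that GENCODE M21 names Hbb-bs and Hbb-bt.

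The alpha-like cluster lies on chromosome 11 of GRCm38 in the order Hba-x (32276400 to 32278116), Hba-a1 (32283511 to 32284465) and Hba-a2 (32296489 to 32297298), on the plus strand. The beta-like cluster lies on chromosome 7 on the minus strand, with Hbb-y (103851749 to 103853216) first in the direction of transcription, then Hbb-bh1 (103841637 to 103843164), Hbb-b1 (103826534 to 103828096) and Hbb-b2 (103812524 to 103813996). Slc4a1 (102348824 to 102365280) is on chromosome 11 and Alas2 (150547375 to 150570638) on chromosome X. These are positions of GENCODE M21, found through the transcript identifiers, since the authors mapped to NCBIM37 and the table gives the chromosome alone. None of these genes is on chromosome 2, which carries the inversion.

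Promoter sequence was available for 7 of the 9 genes (RefSeq, GRCm38.p6). Those of Hba-a2 and Hbb-y are shown because they represent an adult-type and an embryonic globin gene of either cluster, each up to its earliest annotated start. Capitals mark the motifs GATA and CACCC (either strand, anywhere), CCAAT (sense strand, between -110 and -50) and ATAA (sense strand, between -35 and -20), with positions counted back from the RefSeq start. GATA and ATAA can overlap, which they do in neither of these sequences.
Hba-a2, chr11:32296242-32296488, plus strand: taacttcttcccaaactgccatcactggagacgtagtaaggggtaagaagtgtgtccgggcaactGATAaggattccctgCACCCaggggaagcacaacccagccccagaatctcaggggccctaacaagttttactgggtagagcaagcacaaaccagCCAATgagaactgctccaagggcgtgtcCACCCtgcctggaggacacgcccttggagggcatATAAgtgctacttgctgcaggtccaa
Hbb-y, chr7:103853217-103853457, minus strand: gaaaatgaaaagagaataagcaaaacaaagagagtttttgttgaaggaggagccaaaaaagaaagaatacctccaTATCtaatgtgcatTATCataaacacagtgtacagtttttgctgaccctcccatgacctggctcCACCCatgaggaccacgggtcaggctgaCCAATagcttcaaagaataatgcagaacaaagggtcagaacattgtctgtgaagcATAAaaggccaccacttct

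GATA is the core of the motif bound by GATA1, CACCC that of erythroid KLF1, and ATAA at this distance is part of TATA-like boxes. In the 250 bases before the start, GATA was found in 7 of the 7 promoters and in 53.6% of all 32851 promoters, and CACCC in 7 of 7 and in 52.0%. CCAAT was found in its window in 5 of 7, namely the adult-type globin genes and Hbb-y, against 7.0% of all promoters. ATAA was found in its window in 6 of 7, each of the globin genes, against 6.3% of all. The 30 bases from -40 to -11 are shown for the alpha-like gene of the embryo, for the beta-like genes of the adult and for Alas2, with ATAA in capitals. For these 4 genes GENCODE M21 holds a transcript that starts further upstream, so these bases precede the RefSeq start only.
Hba-x, chr11:32276560-32276589: tgaccatgtgtatATAAaggagacactggg
Hbb-b1 (RefSeq Hbb-bs), chr7:103827939-103827968: agggcagagcatATAAggtgaggtaggatc
Hbb-b2 (RefSeq Hbb-bt), chr7:103813934-103813963: cagcattgggtatATAAagctgagcagggt
Alas2, chrX:150547377-150547406: gggtggggtggggtgggcggggctgagcag

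Between Hba-a1 and Hba-a2 even the promoter does not differ. With a shift of 3 bases between their annotated starts, 297 of 297 compared bases were identical. The compared bases hold the promoter and also some bases after the RefSeq start. A match of these letters describes the sequence and does not show that a factor is bound.

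The embryonic beta-like genes were represented mostly by Hbb-y, which encodes the epsilon-y chain. Hbb-y had 14589 normalized reads in wild-type limbs and 12088 in inversion limbs. It was the member with the most reads in both libraries, above 99.99% of the genes with reads in wild-type limbs and 99.98% in inversion limbs. On the log2 scale the inversion differed from wild type by -0.27 (95% interval -0.31 to -0.24), a ratio of 0.829, and this was the lowest log2 ratio of the 9 genes. Hbb-bh1, which encodes the beta-h1 chain of the earliest primitive red cells, had 356 normalized reads in wild-type limbs and 316 in inversion limbs. Its log2 ratio was -0.17 with an interval of -0.40 to 0.05, which includes 0, so that a difference was not detectable at this depth.

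Hba-x, the embryonic alpha-like gene, had 452 normalized reads in wild-type limbs and 429 in inversion limbs. The inversion library was lower by 0.08 on the log2 scale (log2 ratio -0.08, interval -0.27 to 0.12), which is again within counting error. Thus the embryonic genes other than Hbb-y were counted with few reads, and their sum with Hbb-y was set almost entirely by the latter. The embryonic genes summed to 15397 normalized reads in wild-type limbs and 12833 in inversion limbs (log2 ratio -0.26, interval -0.30 to -0.23).

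Among the adult-type genes, Hba-a1 had the highest value, with 8870 normalized reads in wild-type limbs and 7851 in inversion limbs (log2 ratio -0.18, interval -0.22 to -0.13). Hba-a2 had 3381 and 3084 normalized reads (log2 ratio -0.13, interval -0.20 to -0.06). The inversion library was thus the lower one for both copies, and the share of Hba-a1 in their reads was 72.4% in wild-type limbs and 71.8% in inversion limbs, with overlapping intervals. Hbb-b1 had 1868 normalized reads in wild-type limbs and 1669 in inversion limbs (log2 ratio -0.16, interval -0.26 to -0.07). For Hbb-b2 these were 965 and 861 (log2 ratio -0.16, interval -0.30 to -0.03). As pairs, the adult-type alpha-like genes summed to 12251 and 10935 normalized reads (log2 ratio -0.16, interval -0.20 to -0.13), and the adult-type beta-like genes to 2833 and 2530 (-0.16, interval -0.24 to -0.09). All adult-type genes summed to 15084 and 13466 normalized reads (log2 ratio -0.16, interval -0.20 to -0.13). With only the highest transcript of each gene, the adult-type sums were 8719 and 7785, again with a log2 ratio of -0.16. The embryonic sums were then 15126 and 12592.

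**Figure D1:**
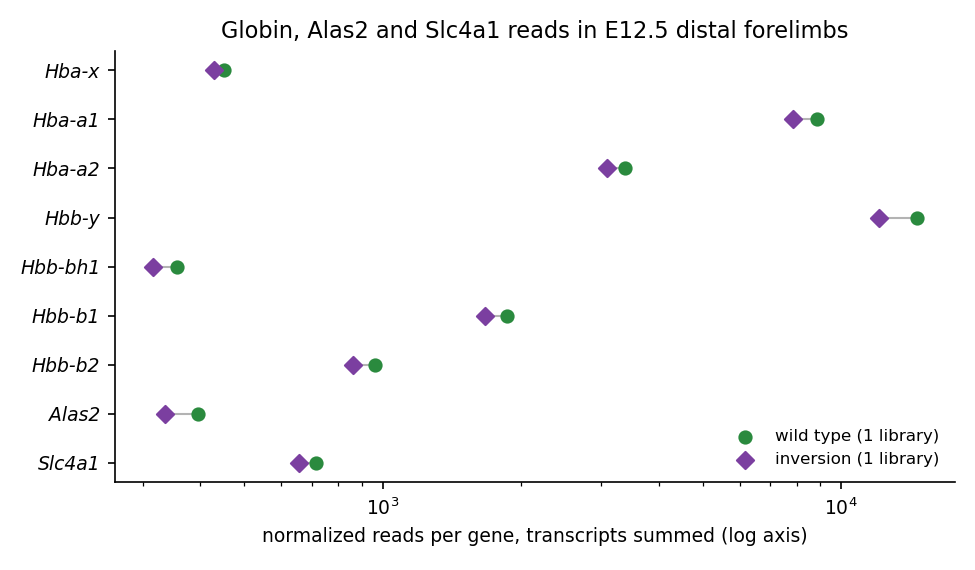
Normalized reads of each gene (transcripts summed, log axis) in the wild-type library (green circles) and the inversion library (purple diamonds), 1 library each. Hbb-y (14589 and 12088) and Hba-a1 (8870 and 7851) stand highest, and each of the 9 genes has the lower value in the inversion library.

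Alas2 had 397 normalized reads in wild-type limbs and 335 in inversion limbs, a log2 ratio of -0.24 (interval -0.46 to -0.03). With its highest transcript alone the interval was -0.55 to 0.07 and included 0. The gene is X-linked, and sex-linked genes differed between the pools. Xist, which marks cells with an inactive X chromosome, had 2607 reads in wild-type limbs and 13 in inversion limbs, and the 4 Y-linked genes looked at had log2 ratios of 1.45 to 2.13. The part of embryo sex in the value of Alas2 was not tested. Slc4a1 had 715 normalized reads in wild-type limbs and 658 in inversion limbs, a log2 ratio of -0.12 (interval -0.28 to 0.03), again not detectable at this depth.

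All 9 genes were lower in the inversion library, from -0.08 for Hba-x to -0.27 for Hbb-y, with a median log2 ratio of -0.16. Of all 16756 genes past the filter, 53.4% had a log2 ratio below 0, and the median over them was -0.02. Among genes with means of 100 or more, where all 9 fall, this share was 57.6%. Past a 2-fold change, 0 of the 9 genes were higher and 0 were lower, where 3.99% of all genes tested were higher and 0.483% lower (1.17% and 0.101% of those with a mean of at least 100). The interval lay below 0 for 6 of the 9 genes, against 13% of all genes tested and 17% of those with a mean of at least 100. Scaled by the upper quartile instead, which adds 0.06 to each log2 ratio, all 9 stayed below 0, against 41.7% of all genes tested, and the interval lay below 0 for 4 of 9, no longer for Hbb-b2 and Alas2, against 6.96% of all genes tested. The genes with intervals that include 0 were Hba-x, Hbb-bh1 and Slc4a1, whereas that of Alas2 did not include it, with fewer reads than Hba-x and Slc4a1. In pooled tissue, fewer red cells and less RNA per red cell cannot be told apart.

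**Figure D2:**
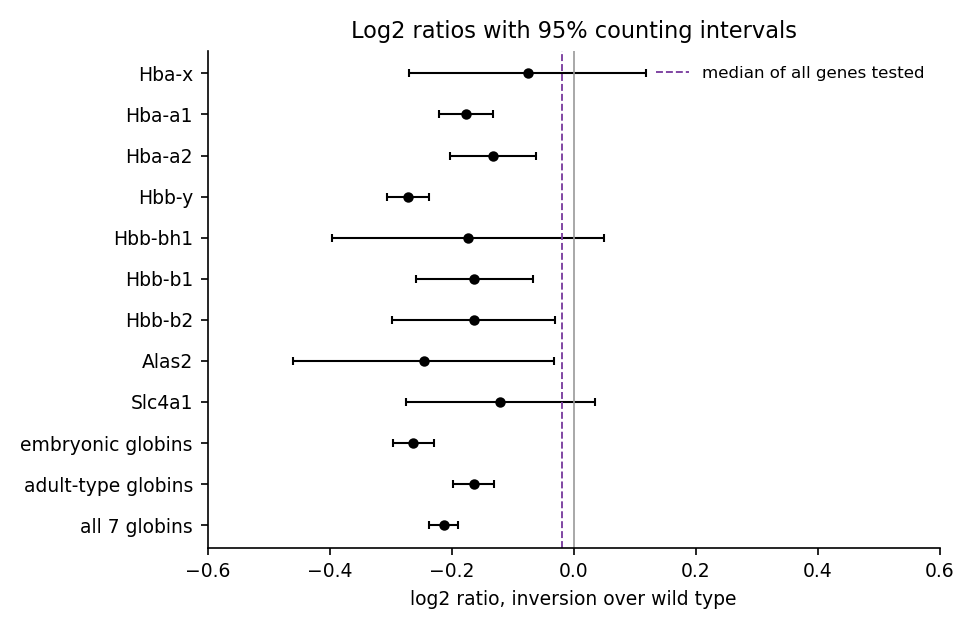
Log2 ratio of inversion over wild type for each gene and for the summed globin groups (points) with 95% counting intervals (bars), from 1 library per genotype. Each point lies left of the median of all genes tested (dashed line, -0.02), and the intervals of Hba-x, Hbb-bh1 and Slc4a1 cross 0.

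The 7 globin genes together took 0.324% of the assigned reads in wild-type limbs and 0.281% in inversion limbs. Their log2 ratio was -0.21 (interval -0.24 to -0.19). Set against Slc4a1 of the same library, the log2 ratio of globin reads was 5.41 in wild type against 5.32 with the inversion, and set against Alas2 it was 6.26 against 6.30. These ratios differed between the libraries by -0.09 (interval -0.25 to 0.06) and 0.03 (interval -0.18 to 0.24), here with log-normal (Woolf) intervals. A difference of the globins from Slc4a1 or from Alas2 was thus not detectable at this depth.

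The balance of embryonic and adult-type globins changes with the stage of the embryo, and, as a ratio within a library, it does not depend on the scaling between libraries. Among beta-like reads the embryonic genes Hbb-y and Hbb-bh1 made up 84.1% in wild type (interval 83.5 to 84.6) and 83.1% in the inversion (82.5 to 83.7). Among alpha-like reads the embryonic gene Hba-x made up only 3.56% (interval 3.24 to 3.89) and 3.77% (3.43 to 4.14). The clusters thus stood at opposite ends in both libraries, with the beta-like reads mainly embryonic and the alpha-like reads mainly adult-type. Over all 7 genes the embryonic share was 50.5% in wild-type limbs and 48.8% in inversion limbs.

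Between the libraries, the log2 ratio of embryonic over adult-type reads differed by -0.10 (Woolf interval -0.15 to -0.05) over all 7 genes. Over the beta-like genes the difference was -0.11 (interval -0.19 to -0.02), that is, slightly fewer embryonic reads in the inversion. Over the alpha-like genes it was 0.09 (interval -0.11 to 0.28), in the opposite direction and within counting error. For Hbb-y alone against the adult-type beta-like genes it was -0.11 (interval -0.19 to -0.02). For Hbb-bh1 against the same adult-type genes it was -0.01 (interval -0.24 to 0.22). Hbb-bh1 against Hbb-y differed by 0.10 (interval -0.12 to 0.32), so that the embryonic beta-like genes were not shown to differ from each other. Over all 7 genes the embryonic reads were mostly Hbb-y and the adult-type reads mostly alpha-like, so that this ratio also compares the clusters. Beta-like over alpha-like reads differed by -0.09 (interval -0.14 to -0.04), close to the -0.10 over all 7 genes. With 1 pool per genotype, a difference in stage and one in genotype cannot be told apart.

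**Figure D3:**
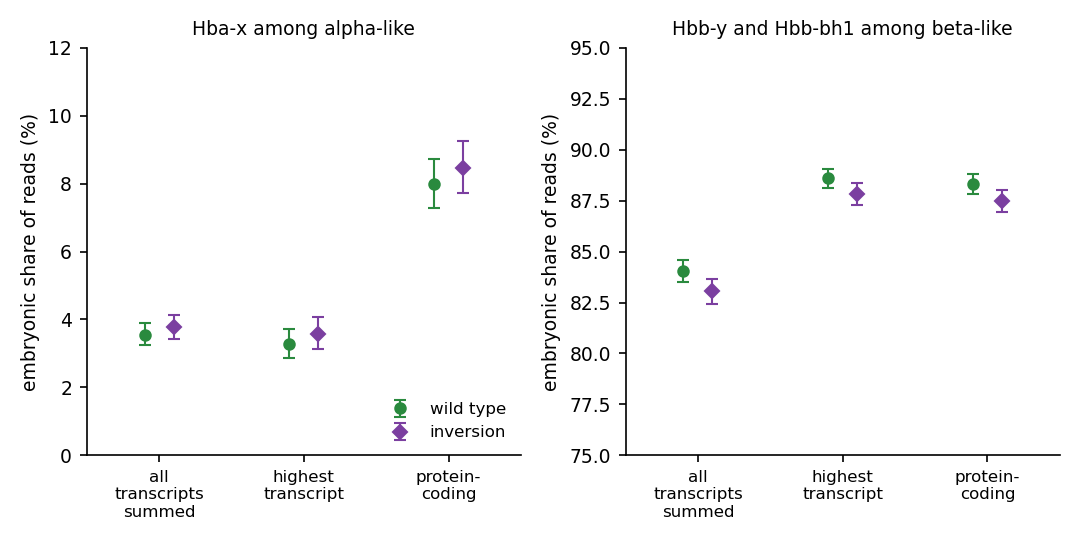
Embryonic share of alpha-like reads (left) and beta-like reads (right, axis from 75 to 95%) in the wild-type (green) and inversion (purple) libraries, with exact 95% intervals, counted over all transcripts, the highest transcript of each gene, or protein-coding transcripts. The share of Hba-x stays below 10% and that of Hbb-y and Hbb-bh1 above 80% in both libraries under each way of counting.

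The choice of transcripts moved the embryonic share over all 7 genes by more than it differed between the libraries. For 6 of the 9 genes the table lists several transcripts with at least 30 wild-type reads. Hba-a1 is listed with 2 transcripts of 4888 and 3982 normalized reads in wild type, and Hbb-b1 with 3, of which the main one had 953 and a shorter retained-intron one 860. Of the 100-base windows in this retained-intron transcript, 78.4% also occur in the main one. The log2 ratios of these Hbb-b1 transcripts differed by 0.01 (Woolf interval -0.19 to 0.20), and those of the 2 Hba-a1 transcripts by -0.00049. The main transcript of Hbb-b1 and the only one of Hbb-b2 had 941 and 953 reads in wild type and 861 and 872 in the inversion. Whether reads that fit several transcripts were counted in each of them is not given in the sources used here, and if they were, intervals of sums are too narrow.

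With only the highest transcript of each gene, the embryonic share over all 7 genes became 63.4% in wild-type limbs and 61.8% in inversion limbs. With protein-coding transcripts only, which leaves out retained-intron transcripts and 1 transcript each of Hba-a1, Hba-a2 and Hbb-bh1 that GENCODE M21 does not hold, the share of Hba-x became 7.98% and 8.47%. The difference between the libraries moved little, to -0.10 over all 7 genes under either setting. Over the beta-like genes its interval was -0.20 to -0.0041 with the highest transcript, next to 0.

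Per kilobase of transcript, taking the most abundant transcript that GENCODE M21 holds for each gene, Hbb-y stood first with 23048 normalized reads per kb in wild-type limbs and 19096 in inversion limbs. It was followed by Hba-a1 (5697 and 5044), Hba-a2 (2210 and 2000), Hbb-b1 (1517 and 1354) and Hbb-b2 (1373 and 1225). Hbb-bh1 (499 and 454), Hba-x (288 and 281), Slc4a1 (156 and 145) and Alas2 (93.5 and 79.0) came last. The order was the same in both libraries. The order of Hba-a1 and Hba-a2, and of Hbb-b1 and Hbb-b2, rests on reads that the copies share and is uncertain. That of Hbb-bh1 and Hba-x is uncertain too, as Hba-x is taken here with its first listed transcript only. Over all transcripts Hba-x had more normalized reads (452 and 429) than Hbb-bh1 (356 and 316).

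The other red cell genes were taken from lists of haem synthesis, membrane, transcription factor, and iron, chaperone and enzyme genes. Of the 57 genes listed besides Alas2 and Slc4a1, 51 had enough reads to be tested, and their median was -0.08 on the log2 scale. Of these 51, 34 were lower and 17 higher in the inversion, where 53.4% of all genes tested were lower. With scaling by the upper quartile 28 were lower, against 41.7% of all genes. Past 2-fold 0 were higher and 0 lower, against 3.99% and 0.483%. The same 53.4% stands beside the count of lower genes in each list. The interval lay below 0 for 7 of the 51 (13.7%, against 13% of all genes tested) and above 0 for 8 (15.7%, against 16.7%). Both shares were thus near those of all genes. The lists also hold genes that limb cells express, such as Alas1, Bcl11a and Sox6. The part of limb cells in these shares was not tested.

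Of the haem synthesis genes, 7 of 9 were lower and 2 higher (median -0.08, -0.02 with scaling by the upper quartile and -0.17 over protein-coding transcripts). Their summed reads went the other way, with a log2 ratio of 0.03 (interval -0.02 to 0.09). Scaling by the upper quartile adds 0.06 to each log2 ratio, with which the interval of this sum lies above 0. Alas2 had the lowest log2 ratio of the list, and without it 6 of 8 genes were lower (median -0.05). Fech, the enzyme for the last step, which inserts the iron, had a log2 ratio of -0.18 (interval -0.33 to -0.03). With scaling by the upper quartile the interval of Fech includes 0. Alas1, the housekeeping counterpart of Alas2, was at -0.03, as was Alad. Ppox, a mitochondrial oxidase of the pathway, was the highest, with 453 reads in wild-type limbs and 849 in inversion limbs (0.87, interval 0.70 to 1.04). The list summed to 5287 normalized reads in wild-type limbs and 5398 in inversion limbs. Ppox alone (459 and 838) rose by more than this sum did, so the sign of the sum rests on Ppox.

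Of 17 membrane genes that passed, 10 were lower and 7 higher (median -0.12, and 0.01 with the highest transcript of each gene), and the summed reads had a log2 ratio of -0.05 (interval -0.11 to 0.0033). Without Slc4a1, 9 of 16 were lower (median -0.11). The spectrin genes of red cells, listed as Spna1 and Spnb1, were at -0.31 and -0.21, with intervals that include 0. Ank1, the ankyrin that ties band 3 to spectrin, was the highest (0.71, interval 0.39 to 1.04), whereas Ermap, a red cell surface protein, was the lowest (-0.51, interval -0.98 to -0.06).

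Of 12 erythroid transcription factor genes, 6 were lower and 6 higher (median -0.02, 0.04 with scaling by the upper quartile and -0.15 with the highest transcript of each gene). Their summed reads had a log2 ratio of 0.05 (interval 3.1e-05 to 0.095, just above 0), opposite in sign to the median. Gata1 had 40 reads in wild-type limbs and 28 in inversion limbs (-0.53, interval -1.30 to 0.18). Klf1, an activator of the adult beta-globin gene, had 32 and 21 reads (-0.62, interval -1.51 to 0.20). Both intervals include 0, and so does that of Gfi1b, the highest of the list, with 15 and 23 reads (0.55). Tal1 and Nfe2 were at -0.04 and 0.04. Bcl11a and Sox6, known as repressors of embryonic globin genes in definitive red cells, were at 0.13 (interval 0.05 to 0.22) and -0.24 (-0.34 to -0.14). Limb tissue also expresses both, and they held most of the summed reads of the list. In wild-type limbs Bcl11a had 2212 and Sox6 1844 of 7024 normalized reads. These 2 genes are named here after their values were seen.

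Of 15 iron, chaperone and enzyme genes that passed, 13 were lower and 2 higher (median -0.09, -0.04 with scaling by the upper quartile and -0.14 over protein-coding transcripts). The summed reads had a log2 ratio of -0.07 (interval -0.11 to -0.03). This interval includes 0 with scaling by the upper quartile, which adds 0.06 to each log2 ratio. Tfrc, the transferrin receptor, was at -0.07 (1013 reads in wild-type limbs and 988 in inversion limbs). Slc25a37, the mitochondrial iron importer mitoferrin, was the highest (0.29, interval 0.12 to 0.46), and Steap3, a ferrireductase, the lowest (-0.30, interval -0.62 to 0.01). Across these lists the globin genes were neither the lowest genes nor the only ones with an interval below 0.

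**Figure D4:**
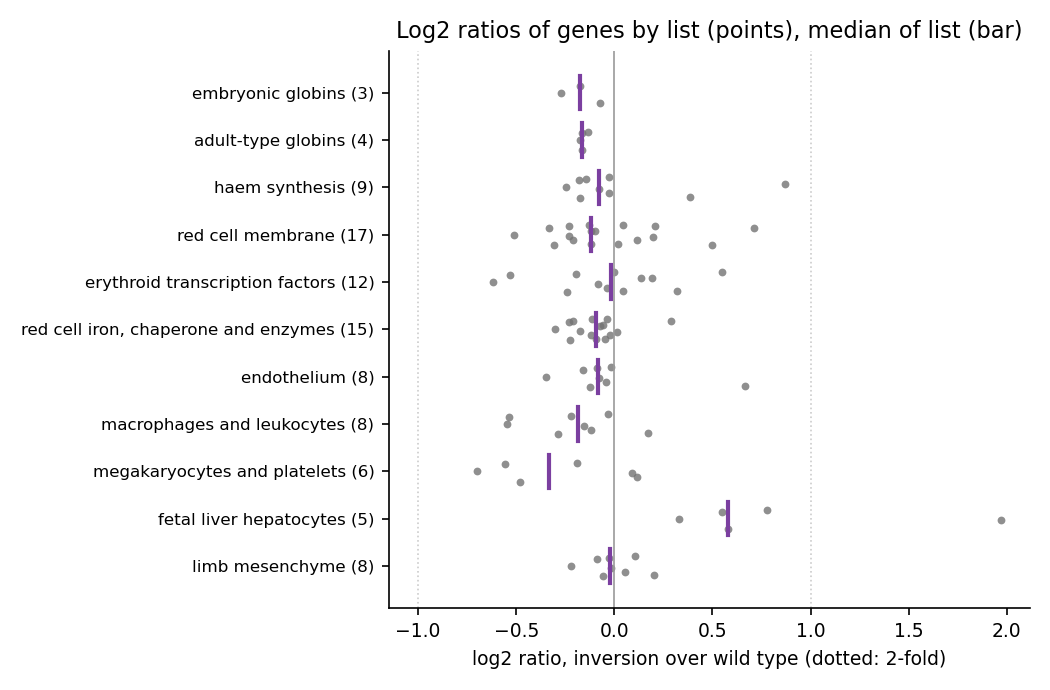
Log2 ratio of inversion over wild type for each gene that passed the filter (points), by list, with the number of genes in parentheses and the median of each list as a bar. The globin medians lie at -0.17 (embryonic) and -0.16 (adult-type) and the hepatocyte list at 0.58. Those of the other red cell lists, which here include Alas2 and Slc4a1, lie between -0.12 and -0.02.

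Other cells that come with blood, and the limb tissue itself, were read out alongside. The limb mesenchyme genes, with Prrx1 at 3857 reads in wild-type limbs and 3913 in inversion limbs, ran from -0.22 for Msx1 to 0.20 for Tbx5. Their sums were nearly equal under the main scaling (log2 ratio of the sum 0.02, interval -0.02 to 0.05). Scaling by the upper quartile adds 0.06 to each log2 ratio, with which this interval lies above 0. Of 8 endothelial genes 7 were lower, but the sums were close, with 5026 normalized reads in wild-type limbs and 4922 in inversion limbs (-0.03, interval -0.09 to 0.03). Their log2 ratios ran from -0.35 for Emcn to 0.67 for Egfl7, both of which encode endothelial proteins. Egfl7, the only higher gene (351 and 558 normalized reads), offset most of the lower values of the other 7 in these sums. Of 8 macrophage and leukocyte genes 7 were lower, with sums of 1117 and 1005 (-0.15, interval -0.28 to -0.03, but up to 0.03 with scaling by the upper quartile), from -0.55 for Tyrobp to 0.17 for Ptprc. Of 6 megakaryocyte and platelet genes 4 were lower, among them Pf4, a platelet chemokine (124 and 86 reads), with sums of 614 and 505 (-0.28, interval -0.45 to -0.11), with Gp9 the lowest at -0.70. None of the markers in these 4 lists was at 0. The part of these cells in the globin values was not tested.

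Genes of fetal liver hepatocytes, the neighbours of definitive red cells before these enter the blood, went the other way. All 5 of 8 that passed the filter were higher in the inversion, with sums of 616 normalized reads in wild-type limbs and 939 in inversion limbs (0.61, interval 0.46 to 0.76). Alb had 489 and 750 reads (0.58), Ttr 69 and 104 (0.55) and Apoa2 5 and 23 (1.97, interval 0.74 to 3.92), the only gene past 2-fold of those that passed. Apoa1 was the lowest of these, at 0.33. Alb held most of both sums (495 and 741 normalized reads). Afp had 3 and 7 reads, Hnf4a 2 and 3, and Serpina1a 0 and 2, all below the filter. The part of liver RNA in the globin values was not tested.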

How the data were processed

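Per the labels and the methods, total RNA of E12.5 distal forelimbs was used for stranded poly(A) RNA-seq with single-end reads of 100 bases. The authors mapped the reads to NCBIM37 (Bowtie2 is named in the submitters' processing notes) and counted them per transcript in HTSstation. The deposited signal columns hold reads per transcript scaled by a size factor for each library. A value of 0.5 stands for no reads and was taken as 0. The methods name RPKM as the unit, but these values are multiples of 1 read whatever the transcript length. The authors' own fold changes and p-values in the table were not used.

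Of the values above 0.5, 100% were whole multiples of 1 read (tolerance 0.011), which gave back the read counts. Transcripts were summed by symbol and chromosome, and log2 ratios were taken with a pseudocount of 1, which understates changes of low genes, for genes whose mean was 10 or more. Intervals cover counting error only. The members and lists were chosen with earlier results of these data known. Beside the 9 genes, the rule names from each list the highest and the lowest gene, each gene at least 2-fold changed and up to 4 defining genes in list order. Of the list genes, 3 were found by a RefSeq synonym and 4 were not matched by symbol. Fech, Sox6, Bcl11a, Ttr, Serpina1a, Hnf4a and Ngb were named after their values were seen. Of the list genes that the rule names, 2 are counted in their lists but not reported here by themselves. GENCODE M21 (GRCm38) was matched by transcript identifier for 88.1% of transcripts. Promoters are from RefSeq, and those of Hbb-bh1 and Slc4a1 are not shown. The steps were tested on simulated data. Alternatives were other scalings, pseudocounts, filters, thresholds and choices of transcripts, and, added after seeing the data, an exact binomial test. Computation was in Python 3.11.15 with scipy 1.17.1, pandas 2.3.3 and numpy 2.4.6, and plots used matplotlib 3.10.9.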

Additional observations from a re-analysis of the deposited data

How the results depend on the processing

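No paired analysis was possible because each genotype had only 1 library. Of 63 values of the 9 genes under an alternative, 0 changed direction and 61 stayed within their counting interval. The other 2, Hba-a1 (-0.12) and Hbb-y (-0.22), left it with scaling by the upper quartile of the genes with reads in each library. This setting moved the embryonic globins to -0.21, the adult-type globins to -0.11 and all 7 to -0.16. The cause was not tested. The differences of embryonic over adult-type globins stayed within their intervals under the alternatives run. Of 54 list medians under an alternative, 42 kept their sign and stayed within 1.5 times. With the upper quartile the medians were -0.024 for haem synthesis, -0.065 for the membrane, 0.037 for transcription factors, -0.037 for iron and enzymes and -0.11 for adult-type globins. With the highest transcript they were 0.0093 for the membrane and -0.15 for transcription factors, and over protein-coding transcripts -0.17 for haem synthesis and -0.14 for iron and enzymes. The transcription factor median was also -0.010 scaled by the total, -0.011 by the total without globins and 0.022 over genes with means of 100 or more.

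The counts of 668 higher and 81 lower genes were 1992 and 1089 without the filter, 139 and 12 over genes with means of 100 or more, 1577 and 341 past 1.5-fold and 113 and 13 past 4-fold. Over protein-coding transcripts 412 were higher. The exact binomial test on the recovered reads (two-sided, Benjamini-Hochberg adjusted p under 0.05), which compares these libraries only, called 2032 higher and 1293 lower. Adding Hbb-bs and Hbb-bt was not run, as no rows carry these symbols. Depth limits Hba-x, Hbb-bh1, Gata1 and Klf1.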

Other observations

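Other globin genes had at most 46 reads in either library. The theta-like genes of the alpha cluster, Hbq1b and Hbq1a, had 12 and 4 reads in wild type and 13 and 7 in the inversion, and Hbb-bh2, between Hbb-bh1 and the adult beta genes, had 1 and 0. Cygb, the cytoglobin of fibroblast-like cells, had 44 reads in wild-type limbs and 46 in inversion limbs (log2 ratio 0.03, interval -0.60 to 0.66). Mb, the myoglobin of muscle, had 5 and 14 reads and Ngb, the neuroglobin of neurons, 4 and 5.

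The pseudogene Hbb-bh0, which lies next to Hbb-y and was looked up after its values were seen, had 42 reads in wild-type limbs and 45 in inversion limbs (log2 ratio 0.06, interval -0.58 to 0.71), an interval that also holds the log2 ratio of Hbb-y.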
